A study of Mus musculus with 2 samples.

Results

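The Six-family and Eya loci of the whole mouse embryo are described here, the 5 homeobox genes Six2, Six3, Six4, Six5 and Six6 and the 4 genes Eya1, Eya2, Eya3 and Eya4. Each was found by its Ensembl identifier among the 34624 loci of the series, a locus being 1 gene or a group of overlapping genes with 1 value in the files. All 9 genes had a locus. The series measured total RNA of untreated whole embryos from CBA/Ca×C57Bl/10 crosses at embryonic day 10.5, in 1 group of 2 replicates. It holds no second condition, and whether each replicate came from a single embryo or from several pooled ones is left unsaid in the labels, so the spread between replicates may be technical.

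Six-family proteins bind DNA through a homeodomain and a neighbouring Six-type domain, and most depend on partners to activate or repress their targets. Eya proteins do not bind DNA themselves: they are phosphatases and coactivators that Six-family proteins bring to target genes, while Dach and Groucho (Tle) proteins act as corepressors. With Pax factors these proteins form a network, first described in the fly eye, that is used in the cranial sensory placodes, the pharyngeal arches, the kidney and the skeletal muscle of vertebrates. Each domain is a small part of the embryo at midgestation. In RNA of a whole embryo, fewer cells that express a gene and less RNA per cell cannot be told apart.

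A DNA element that Six-family proteins are known to bind is MEF3, first described in muscle promoters and spelled TCAGGTTTC. It was searched on both strands in RefSeq promoter windows of build GRCm38.p6, each with 250 bases before and 50 bases after a transcription start. Of the 9 genes, 7 matched a window by symbol (9 windows in all), and Eya1 and Eya2 did not. Six4 held all 9 letters, on the opposite strand, beginning at position -99 from its start site. The first 7 letters of the element, TCAGGTT, which each MEF3 match contains, were also present in Six6, from position -157. Myog, the myogenin gene, whose promoter is the textbook case of a MEF3 element, held all 9 letters from position -84. The 250 bases before each start are shown in the direction of transcription, since these windows hold the element or its first letters in 2 loci described here and in that known target. Capitals mark the MEF3 letters, which in Six4 read as the reverse complement.
Six4, chr12:73113246-73113495, minus strand: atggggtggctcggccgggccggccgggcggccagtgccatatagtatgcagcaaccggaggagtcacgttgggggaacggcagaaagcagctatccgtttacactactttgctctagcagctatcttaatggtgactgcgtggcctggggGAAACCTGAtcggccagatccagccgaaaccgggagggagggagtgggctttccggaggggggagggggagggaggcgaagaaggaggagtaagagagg
Six6, chr12:72939632-72939881, plus strand: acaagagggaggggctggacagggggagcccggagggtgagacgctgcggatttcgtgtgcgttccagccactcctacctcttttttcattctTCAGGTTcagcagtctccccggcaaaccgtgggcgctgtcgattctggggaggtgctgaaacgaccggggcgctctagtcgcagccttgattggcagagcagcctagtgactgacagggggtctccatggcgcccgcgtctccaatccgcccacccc
Myog, chr1:134289754-134290003, plus strand: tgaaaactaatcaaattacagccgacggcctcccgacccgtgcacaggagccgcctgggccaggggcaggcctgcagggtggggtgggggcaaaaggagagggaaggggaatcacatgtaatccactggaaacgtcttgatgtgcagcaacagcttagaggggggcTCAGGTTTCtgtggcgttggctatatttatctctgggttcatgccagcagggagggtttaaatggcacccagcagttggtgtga
Among all 32851 windows of that length, 0.429% held the 9 letters and 4.07% held the 7 letters on either strand. A match is a description of the letters, not of binding in these embryos, and the other windows say only that the letters are not in them. The second Six4 window, from another annotated start, did not hold the element. Of the 72 windows of 50 network genes described below, 3 held the 7 letters (in Gfra1, Myog and Mef2c). The 9 windows had a ratio of observed to expected CpG between 0.559 in Six5 and 1.13 in Six2, against a median of 0.384 over all windows. Most of the 72 windows of network genes also lay above that median, with a range from 0.0649 in Gcm2 to 1.24 in Pou4f1.

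The libraries differed in depth. Replicate 1 held 18318181 counts over all loci and replicate 2 held 117522171, which is 6.42 times as many. All markers looked up of blood, neural tissue, heart, mesenchyme, epithelium and endothelium, 3 or 4 loci each, reached 1 RPKM (reads scaled to transcript length and to library size) in both replicates. Of 6 trophoblast and maternal markers 1 did, and Tpbpa and Psg21 were at 0 reads in both. The summed level of those 6 was 3.55 RPKM in replicate 1 and 8.19 RPKM in replicate 2. Prl8a2 (1.23 and 6.38 RPKM) and Prl3d1 (0.204 and 0.824 RPKM) were higher in replicate 2. Prl3b1 (1.90 and 0.970 RPKM) and Prl3c1 (0.213 and 0.0209 RPKM) were lower. Prl3c1 had 2 reads in replicate 1 and 1 in replicate 2, and Prl3d1 had 2 reads in replicate 1. The directions of Prl3c1 and Prl3d1 thus rest on very few reads. The 4 blood markers, which include the embryonic globins Hbb-y and Hba-x, summed to 4199 RPKM in replicate 1 and 11672.5 RPKM in replicate 2. Among them Hbb-y, Hba-x and Hbb-bh1 were higher in replicate 2, while Alas2 was lower (131 and 60.3 RPKM in replicates 1 and 2). The part of these tissues in the levels below was not tested.

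All 9 loci passed a minimum of 1 RPKM in each replicate, and of 3 RPKM as well. Among all loci, 49.4% passed the minimum of 1 RPKM and 40.6% that of 3 RPKM. Of 19311 protein-coding loci, 65.0% passed 1 RPKM. Mean levels ran from 4.24 RPKM in Six2 to 34.5 RPKM in Eya3. Between 59.5% (Six2) and 82.5% (Eya3) of all loci had a lower mean. Among the 17090 loci that passed, the share with a lower mean was 18.0% for Six2 and 64.6% for Eya3, so the 9 loci lay in the lower and middle range of detected loci. The 5 Six-family loci had a median of 14.5 RPKM in replicate 1 and 8.10 RPKM in replicate 2. The 4 Eya loci had a median of 24.9 RPKM in replicate 1 and 16.7 RPKM in replicate 2. The ranges overlapped in replicate 1, where the lowest Eya locus, Eya4 (14.4 RPKM), stood below Six4 (21.6 RPKM), Six3 (15.2 RPKM) and Six6 (14.5 RPKM). They did not overlap in replicate 2, where the lowest Eya locus was Eya1 (14.4 RPKM) and the highest Six-family locus was Six6 (13.0 RPKM). This gap in replicate 2 was seen by RPKM but not by the other measures given below.

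**Figure D1:**
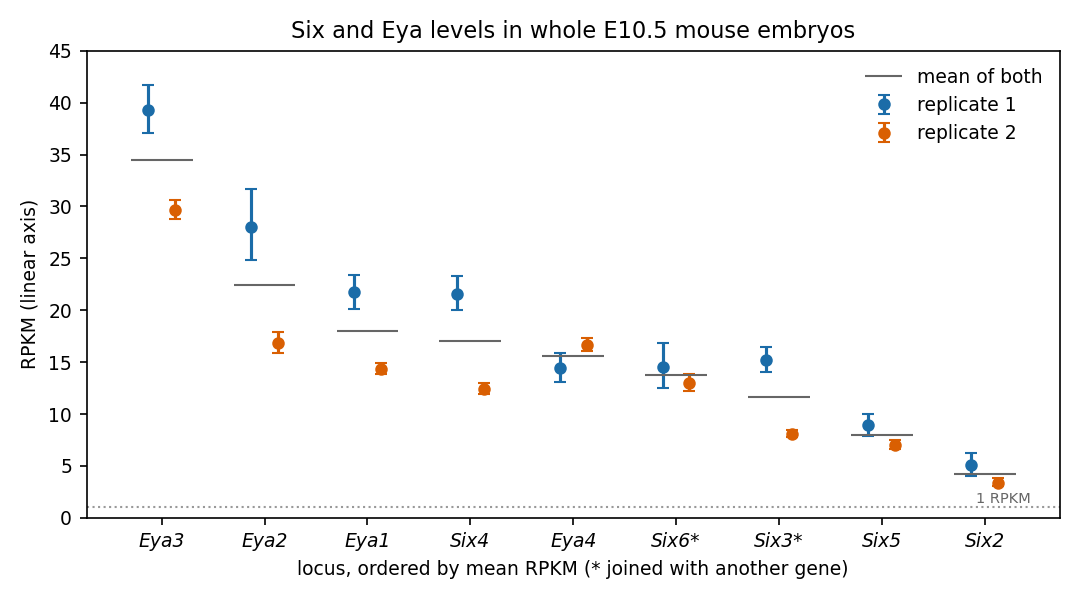
RPKM (linear axis) of each Six-family and Eya locus in replicate 1 (blue) and replicate 2 (orange), with exact 95% Poisson intervals of the counts and the mean of both replicates as a grey line. Eya3 is highest at a mean of 34.5 RPKM and Six2 lowest at 4.24 RPKM, and Eya4 is the 1 locus whose replicate 2 value is the higher.

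Six2, which keeps nephron progenitors undifferentiated in the kidney, was the lowest of the 9. It had 5.07 RPKM from 83 reads in replicate 1 and 3.40 RPKM from 316 reads in replicate 2. With so few reads the exact 95% Poisson interval of replicate 1 was wide, 4.04 to 6.29 RPKM, against 3.03 to 3.80 RPKM in replicate 2. These intervals and all others cover counting error only.

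Six3 and Six6 pattern the anterior forebrain and the eye, Six3 also by repressing Wnt signals and Six6 in the retina and pituitary. Six3 had 15.2 RPKM (638 reads) in replicate 1 and 8.10 RPKM (2082 reads) in replicate 2. Six6 had 14.5 RPKM (182 reads) in replicate 1 and 13.0 RPKM (925 reads) in replicate 2. Neither value belongs to 1 gene. The files join Six3 with identifier ENSMUSG00000056364, and of the 16 transcripts of that locus, 4 of the 5 found in GENCODE M21 belong to Six3os1, a long non-coding RNA on the opposite strand, and 1 to Six3. Six6 is joined with its neighbour 4930447C04Rik, which holds 9 of the 10 transcripts of that locus found in M21. How the reads divide between the joined genes cannot be told from these files.

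Six4, a regulator of skeletal muscle and sensory ganglia, was the highest Six-family locus by mean RPKM. It had 21.6 RPKM (675 reads) in replicate 1 and 12.4 RPKM (2161 reads) in replicate 2. In replicate 2 the joined Six6 locus was higher (13.0 RPKM). Six4 overlaps Mnat1 in RefSeq, a subunit of the CDK-activating kinase on the opposite strand, which stood at 56.8 RPKM in replicate 1 and 71.8 RPKM in replicate 2. For the counting, the use of strand was not given in the sources used here. Reads of both genes in the overlap then cannot be told apart. Six5, which lies beside the myotonic dystrophy kinase gene Dmpk, had 8.90 RPKM (275 reads) in replicate 1 and 7.06 RPKM (1239 reads) in replicate 2, and in RefSeq it overlaps Bhmg1. Its neighbours Dmwd (69.8 and 48.0 RPKM in replicates 1 and 2) and Dmpk itself (35.8 and 24.3 RPKM) stood higher than Six5 in both replicates, as did Fbxo46 in replicate 1 (13.6 RPKM) but not in replicate 2 (6.21 RPKM). Gipr, the incretin receptor gene, was at 0.330 RPKM in replicate 1 and 0.133 RPKM in replicate 2.

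Eya1, whose loss in humans causes branchio-oto-renal syndrome, had 21.7 RPKM (692 reads) in replicate 1 and 14.4 RPKM (2669 reads) in replicate 2. Eya2, expressed in placodes and myogenic cells, had 28.1 RPKM (267 reads) in replicate 1 and 16.8 RPKM (1093 reads) in replicate 2. In RefSeq it overlaps Gm29993, a long non-coding RNA. The RPKM of Eya2 was second only to that of Eya3, although 6 of the other 8 loci had more reads in replicate 1, namely every one except Six6 and Six2. Eya3, the most widely expressed Eya gene, had 39.3 RPKM (1109 reads) in replicate 1 and 29.7 RPKM (4210 reads) in replicate 2, and was highest in both. Eya4, which is mutated in a form of human deafness, had 14.4 RPKM (444 reads) in replicate 1 and 16.7 RPKM (2789 reads) in replicate 2.

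The order of the loci depended on the length behind the RPKM. Read counts and RPKM together gave the length that the authors divided by. The library size was set as the commonest value over rows of a single transcript with 200 reads or more, at full GENCODE M21 length. Of such rows that were non-coding, 81.0% of 836 in replicate 1 and 84.5% of 1538 in replicate 2 then had a length within 1% of that in M21. The library size was fitted to rows that include these, so those shares are not an independent check. In replicate 2, 61.8% of 2416 single-transcript coding rows with 200 reads or more had a length within 1% of their M21 transcript without its 3′ UTR, and 2.94% within 1% of the full transcript. In replicate 1 the shares were 60.8% and 2.61% of 1685 rows. The deposited RPKM of coding genes therefore matched a length of 5′ UTR and coding sequence in most such rows, and whether reads of the 3′ UTR were counted is not given in the sources used here. Six5, with 1 transcript, had a length of 2253 bases in both replicates, where the M21 transcript has 2203 bases without its 3′ UTR and 3007 in full, so neither was within 1%. Eya2 had the shortest, 694 bases in replicate 1 and 833 bases in replicate 2. The files list 7 transcripts for it, and of the 6 found in M21, 4 are non-coding, the shortest of 369 bases. For loci of several transcripts the length also differed between replicates: the ratio of replicate 2 to replicate 1 was 1.20 for Eya2, 1.08 for Six3 and 0.885 for Eya3, and 3 loci (Six2, Six5 and Six6) differed by under 1%.

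Levels were therefore also taken without a length and with a fixed one. By CPM (each count scaled to the library's total, with no length), Eya2 ranked 7 of 9, with a mean of 11.9 CPM. By CPM per kilobase of the M21 transcript with the longest coding part, without its 3′ UTR, it ranked 6, at 6.46 CPM per kilobase. Six3 moved the other way, from rank 7 by RPKM to rank 2 by CPM per kilobase (20.97). There, however, the reads of the joined locus are divided by the length of Six3 alone. The joined Six6 locus went from rank 6 by RPKM to rank 8 by CPM per kilobase. Its M21 length, 1869 bases, was that of the transcript with the longest coding part of either joined gene. The length behind its RPKM was 913 bases in both replicates. Eya3 ranked 1, Eya4 ranked 5 and Six2 ranked 9 by all 3 measures, taken as means of both replicates. The gap in RPKM between the Eya and Six-family loci of replicate 2 was not seen without the deposited lengths. In replicate 2 Eya2 had 9.30 CPM, below Six4 (18.4 CPM) and the joined Six3 locus (17.7 CPM). By CPM per kilobase of M21 length Eya2 had 5.04, below Six4 (7.16) and the joined Six3 locus (14.1). Within the replicates, Eya4 moved most by RPKM, with rank 7 in replicate 1 and rank 3 in replicate 2. By RPKM in replicates 1 and 2, Eya1 ranked 3 and 4, and Six4 ranked 4 and 6. On means of both replicates, over the 3 measures, Eya1 lay at ranks 2 or 3 and Six4 at ranks 3 or 4.

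**Figure D2:**
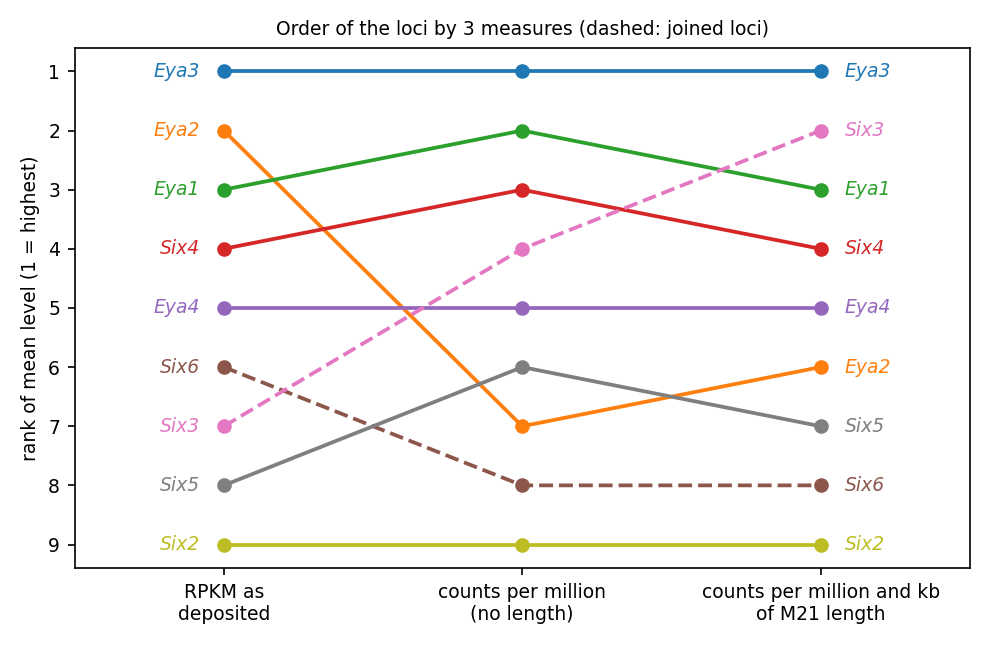
Rank of each locus (1 = highest mean of both replicates) by deposited RPKM, by CPM without a length, and by CPM per kilobase of M21 length without the 3′ UTR, with the joined loci Six3 and Six6 dashed. Eya3, Eya4 and Six2 hold ranks 1, 5 and 9 throughout, while Eya2 goes from rank 2 to ranks 7 and 6 and Six3 from rank 7 to ranks 4 and 2.

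Differences between loci were read against the spread between the replicates. A difference, taken on the log2(RPKM + 1) scale in each replicate, was called when it had 1 sign in both replicates and its mean exceeded 2 times the SD of the replicate log2 ratio among loci of that level (the larger SD of the pair). With 2 replicates an exact two-sided permutation test can give no p below 1 in 3, so no p is given. Of the 36 pairs, 11 were called, where 66.5% of pairs among all loci that passed 1 RPKM were. The sign was the same in both replicates for 30 of the 36 pairs.

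None of the 8 pairs of neighbours in the order of mean RPKM differed beyond the spread. From the top, Eya3 exceeded Eya2 by 0.63 ± 0.22 (SD over the 2 replicates) and Eya2 exceeded Eya1 by 0.29 ± 0.10. Eya1 and Six4 differed by 0.10 ± 0.13 and were nearly equal in replicate 1, at 0.01. The next 3 neighbours, Six4 against Eya4 (0.08 ± 0.67), Eya4 against Six6 (0.16 ± 0.24) and Six6 against Six3 (0.28 ± 0.48), changed sign between replicates. Six3 exceeded Six5 by 0.44 ± 0.38, and Six5 exceeded Six2 by 0.79 ± 0.12, with a limit of 1.17.

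Six2 was in 7 of the 11 called pairs, being lower than every locus but Six5 beyond the spread. Eya3 exceeded it by 2.77 ± 0.05, Eya1 by 1.85 ± 0.07 and Six4 by 1.75 ± 0.20. Eya3 also exceeded Six5 (1.98 ± 0.07) and Six3 (1.54 ± 0.31), and Eya2 (1.35 ± 0.29) and Eya1 (1.06 ± 0.19) exceeded Six5. Some calls rested on 1 library. Replicate 2 alone gave 0.93 for Eya1 against Six5 and 1.05 for Six3 against Six2, both within the spread, and replicate 1 alone gave 1.32 for Eya3 against Six3, also within it. Conversely, 4 differences outside the 11 were past the limit in 1 replicate alone: Eya4 over Six5 in replicate 2 (1.13), and Eya3 over Eya4 (1.39), Eya3 over Six6 (1.38) and Six4 over Six5 (1.19) in replicate 1. The calls that held under every alternative tried were 4, namely Eya3 over Six5 and Eya3, Eya1 and Six4 over Six2. With CPM per kilobase of M21 length, Eya2 no longer differed beyond the spread from Six5 (0.12) or Six2 (0.91), nor Eya3 from the joined Six3 locus (0.40), nor the joined Six6 locus from Six2 (0.56).

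**Figure D3:**
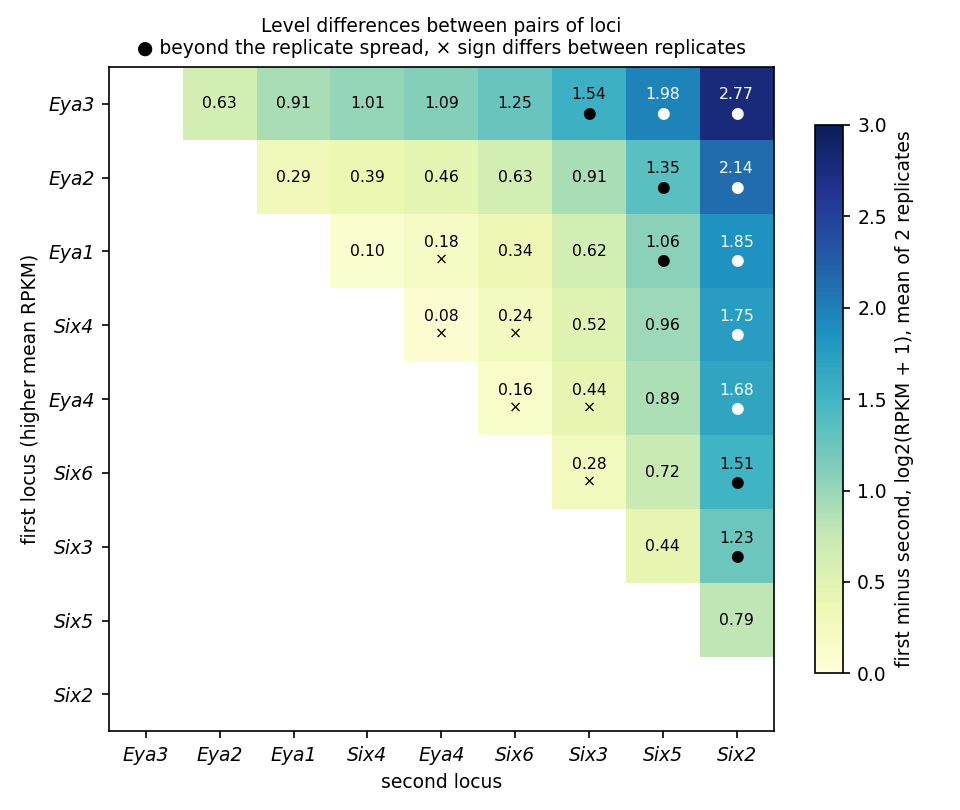
Mean difference in log2(RPKM + 1) over the 2 replicates for each of the 36 pairs of loci, row (higher mean RPKM) minus column, with a dot where the difference was beyond the replicate spread and a cross where its sign differed between replicates. The 11 dots lie in the 3 right-hand columns, against Six3, Six5 and Six2, and the largest difference is 2.77 between Eya3 and Six2.

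The ratio between replicates was close to that of other loci at the same level for most of the 9. RPKM was lower in replicate 2 for 8 loci, as it was for 78.3% of loci that passed 1 RPKM, and the median log2 ratio of replicate 2 over replicate 1, on RPKM + 1, was -0.47 over the 9 loci and -0.36 over all that passed. The lowest ratio was that of Six3 (-0.83), followed by Six4 (-0.75) and Eya2 (-0.70). All but 1 of the 9 lay within 1 SD of the median for their level, as did 79.8% of loci. The exception was Eya4, at 0.19, which was 0.68 above the median of its level with an SD of 0.51.

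In CPM, which uses no length, all 9 loci were lower in replicate 2, as were 87.6% of loci that passed, and Eya4 was nearly even. It had 24.2 CPM in replicate 1 (95% interval 22.0 to 26.6) and 23.7 CPM in replicate 2 (22.9 to 24.6). The intervals of replicates 1 and 2 did not overlap for the other 8 loci, and over all loci that passed 1 RPKM, 72.7% were lower in replicate 2 with intervals apart. Six4, for example, had 36.8 CPM (34.1 to 39.7) in replicate 1 and 18.4 CPM (17.6 to 19.2) in replicate 2. Six6 came closest, with 9.94 CPM (8.54 to 11.5) in replicate 1 and 7.87 CPM (7.37 to 8.39) in replicate 2. The 20 loci with the most reads took 4.68% of counts in replicate 1 and 12.2% in replicate 2. Without these loci in the library sums the median log2 ratio of CPM + 1 over the 9 was -0.50, against -0.60 with them.

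**Figure D4:**
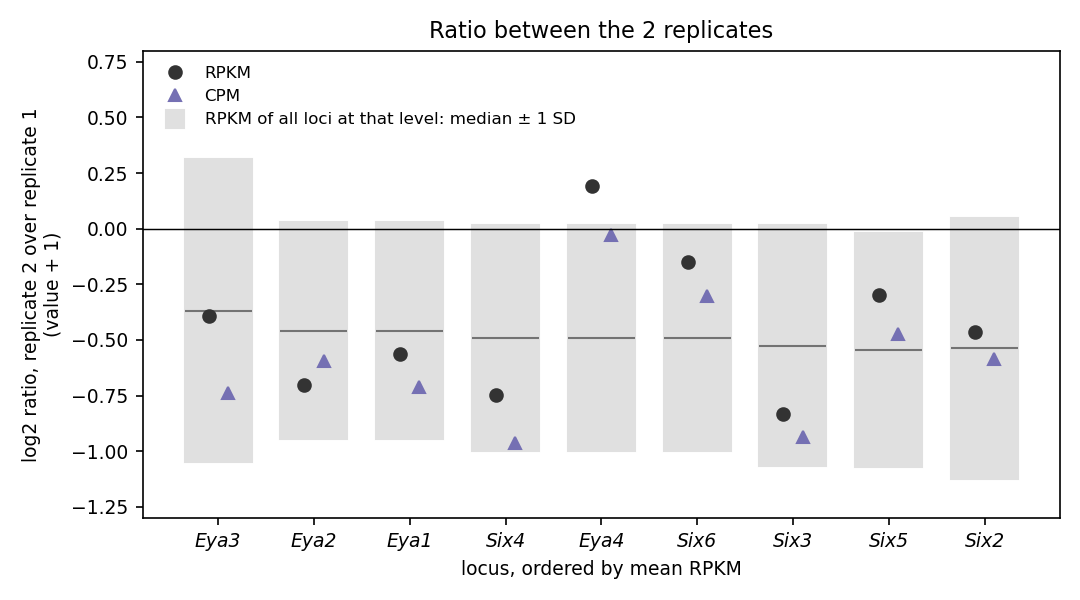
log2 ratio of replicate 2 over replicate 1 for each locus, from RPKM + 1 (circles) and CPM + 1 (triangles), over the median and 1 SD of the RPKM ratio of all loci at the same level (grey line and box). By RPKM the loci lie below 0 except Eya4 at 0.19, which is the 1 circle outside its box.

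Genes that work with these proteins, and genes of the organs they are known for, were described from 7 lists with 71 loci. Of these, 59 reached 1 RPKM in both replicates, as did 49.4% of all loci and 65.0% of protein-coding loci. All 8 loci of the Dach and Groucho list did, with a median of 32.7 RPKM in replicate 1 and 23.3 RPKM in replicate 2, above the medians of the 9 Six-family and Eya loci (15.2 and 13.0 RPKM). The corepressor Tle1 (102 and 87.8 RPKM in replicates 1 and 2, joined with Gm11250), Tle3 (67.1 and 72.1 RPKM) and Aes (39.6 and 38.0 RPKM) were highest, and Tle2 (7.59 and 4.40 RPKM, joined with Gm15917) was lowest. The Dach genes, whose products join the Six-Eya complex in repression, were close to each other: Dach1 had 32.4 and 24.1 RPKM and Dach2 32.9 and 22.3 RPKM. Both lay between Eya2 and Eya3 in each replicate. Differences between list genes and the 9 loci were not set against the replicate spread. Over all protein-coding loci, passed or not, the medians were 8.35 RPKM in replicate 1 and 5.50 RPKM in replicate 2. In both replicates the eye and pharyngeal lists below had lower medians than these, the kidney list nearly the same, and the other lists higher ones. The share of loci that passed was also below that of protein-coding loci in the eye and pharyngeal lists, and above it in the others.

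All 12 kidney progenitor loci passed, with a median of 8.92 RPKM in replicate 1 and 5.54 RPKM in replicate 2. Osr1, a gene of early kidney mesoderm (18.9 and 16.0 RPKM), Sall1 (20.4 and 12.9 RPKM) and Cited1 (15.1 and 12.4 RPKM) were highest, and Pax2, required for kidney and ear, was lowest (2.05 and 1.02 RPKM). Eya1 lay above Osr1 in replicate 1 but below it in replicate 2, while Six2 lay between Wt1 and Gdnf in both: Wt1 had 9.49 and 6.69 RPKM, and Gdnf, the signal that induces the ureteric bud, had 2.76 and 1.34 RPKM.

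In the eye and anterior forebrain list 7 of 13 loci passed, with a median of 5.33 RPKM in replicate 1 and 2.16 RPKM in replicate 2. Pax6 (53.7 and 29.4 RPKM), Otx2 (28.2 and 18.1 RPKM) and Lhx2 (15.97 and 12.7 RPKM) were highest. Among the 6 loci that did not pass were the retina gene Rax (1.28 and 0.615 RPKM, joined with another identifier) and the lens genes Pitx3 and Foxe3. Foxe3 was lowest, with 2 reads in replicate 1 and 0 in replicate 2, where a count of 0 allows up to 0.0255 CPM. The joined loci of Six3 and Six6 thus stood above Rax in both replicates, on values that include the genes they are joined with.

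The otic and cranial placode list passed at 12 of 14 loci, with a median of 9.26 RPKM in replicate 1 and 6.36 RPKM in replicate 2. The sensory neuron genes Pou4f1 (52.5 and 62.7 RPKM), Neurod1 (39.0 and 31.7 RPKM, joined with Cerkl) and Neurod4 (39.5 and 29.2 RPKM) were highest, and Foxi3, a gene of the early placode field, was lowest (0.242 and 0.149 RPKM). In the pharyngeal list 5 of 8 loci passed, with a median of 6.35 RPKM in replicate 1 and 3.35 RPKM in replicate 2. The joined locus of Hoxa2 and Hoxa3 (88.4 and 55.2 RPKM), Tbx1 (9.54 and 6.76 RPKM) and Pax1 (7.94 and 4.21 RPKM, joined) were highest. Foxn1, a thymus gene, was lowest, with 1 and 4 reads in replicates 1 and 2.

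All 12 skeletal myogenic loci passed, with a median of 16.5 RPKM in replicate 1 and 8.83 RPKM in replicate 2. Mef2c (47.6 and 47.9 RPKM), which the heart also expresses, Ttn (47.8 and 42.3 RPKM, joined with Gm13938) and Meox1 (45.5 and 37.9 RPKM) were highest, and Lbx1, a gene of migrating muscle precursors, was lowest (1.22 and 1.23 RPKM). Myog, whose promoter is printed above with its MEF3 element, had 14.0 RPKM from 140 reads in replicate 1 and 8.49 RPKM from 481 reads in replicate 2, below Six4 and Eya1 in both.

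**Figure D5:**
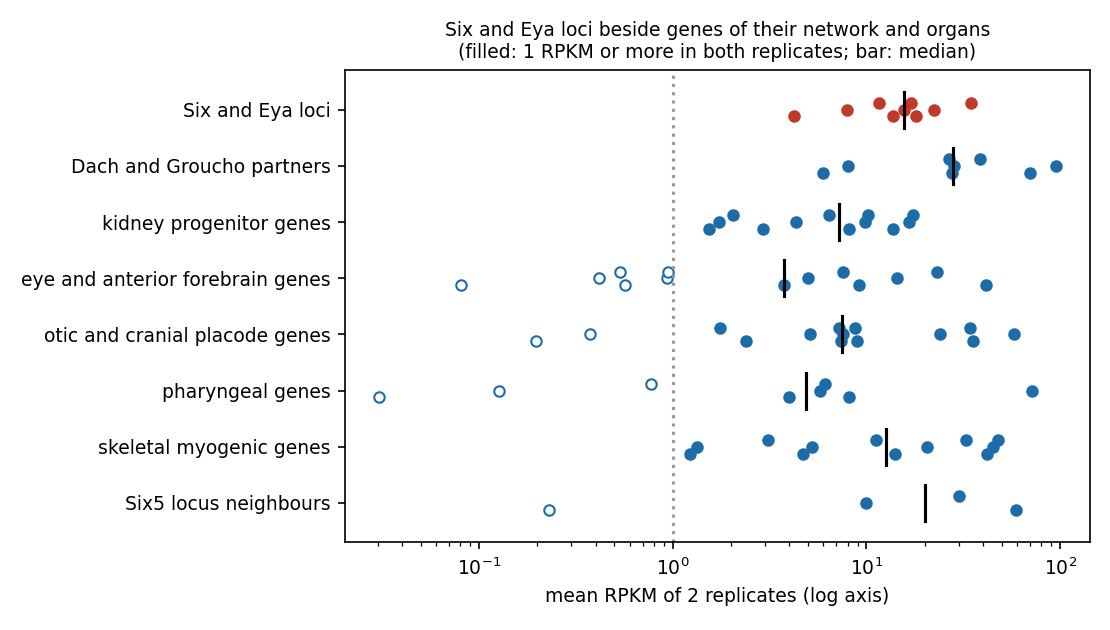
Mean RPKM of 2 replicates (log axis) of the Six-family and Eya loci (red) and of the 7 gene lists (blue), filled where a locus reached 1 RPKM in both replicates and open where it did not, with the median of each list as a bar. The 9 red points lie between 4.24 and 34.5 RPKM, below the median of the Dach and Groucho list for all but Eya3, and the 12 open points are in the eye, placode, pharyngeal and Six5 neighbour lists.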

How the data were processed

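RNA was extracted with TRI reagent and sequenced from standard Illumina libraries, per the labels' protocols. TopHat and build mm9 are named in the submitters' processing notes, without a version, and the read counter, the annotation release and strand use were not given in the sources used here. The authors deposited RPKM values and raw read counts per row, per the file headers, in 1 file per replicate. Rows with the same identifiers were summed to 34624 loci, of which 2473 (7.14%) joined several genes. Symbols came from a table of names, which held 86.6% of identifiers. Promoter sequences are from RefSeq (GRCm38.p6), and transcript lengths and gene types from GENCODE M21. Coordinates of that build were not joined to the mm9 files. Protein sequences were not used here.

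With 1 group no test between conditions exists, and no count model was fitted. The log2 scale used a pseudocount of 1, and the spread came from 20 level bins of loci with a mean of 0.1 RPKM or more. Calculations used Python 3.11.15, numpy 2.4.6, pandas 2.3.3 and scipy 1.17.1, and the code was tested on simulated data. Named genes were all 9 members and, of each list, the 3 highest and the lowest, plus joined and overlapping genes. Dach1, Dach2, Wt1, Gdnf, Myog and the other list genes beyond these were chosen after their values were seen. The members and lists were chosen with earlier results of these data known.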

Additional observations from a re-analysis of the deposited data

How the results depend on the processing

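All 9 loci still passed at a minimum of 3 RPKM. Taking the highest row per locus gave the same values for all 9 and so could not change this count. The other settings tried for this count (0.3 RPKM, each replicate alone, the 7 loci with no joined gene) could not lower it. The median level of the 9 loci, 15.5 RPKM, was 13.0 to 15.2 RPKM with 1 replicate left out, 24.0 CPM without a length and 10.2 CPM per kilobase of M21 length, a measure on another scale that was added after seeing the data. The count of called pairs, 11 of 36, was 10 to 13 with 1 replicate left out, 7 with a pseudocount of 0.01 and 19 with M21 lengths, where Six3 turned from lower to higher against Eya2 (-1.51), Six4 (-0.90), Eya4 (-0.90) and Six6 (-1.86), all as first minus Six3. By construction that measure divides the joined Six3 reads by the length of Six3 alone. For the joined Six6 reads it takes the transcript with the longest coding part of either joined gene. In addition, 1 length replaces those that differed by replicate. The median replicate ratio stayed between -0.60 and -0.15 on the log2 scale over its alternatives. List loci at the minimum were 47 to 63 of 71 over both minimums, and 49 of 60 single-gene loci. Depth limits Six2 most, with 83 reads in replicate 1. No paired analysis was possible because the series has 1 group.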
